A study of Mus musculus with 24 samples.

Results

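Gene expression was compared between 4 double heterozygous mouse embryo libraries, which carried 1 mutant copy of Kat6a and 1 mutant copy of Dlx5, and 4 Dlx5 heterozygous libraries, which carried 1 mutant copy of Dlx5 and 2 normal copies of Kat6a. The 8 libraries were chosen by their genotype labels, out of 24 in the series. The comparison asks what the loss of 1 Kat6a copy does to gene expression when 1 Dlx5 copy is already missing. The RNA came from C57BL/6 embryos at E10.5, female by the design text, from the first and second pharyngeal arches together, and was read out by poly(A) RNA sequencing. The other genotypes used for values side by side were wild type, Kat6a heterozygous and Kat6a homozygous mutant, with 4 libraries each and normal Dlx5. The 4 Dlx5 homozygous mutant libraries, with normal Kat6a and all from batch 1, entered the fit and are shown where all 24 libraries are. The design text calls the 4 libraries of a genotype biological replicates. The labels do not say whether embryos were pooled or which part of each gene is deleted. Embryos came from 2 mouse facilities, given as batch 1 and batch 2. Of the double heterozygous libraries, 3 were from batch 1 and 1 from batch 2, and of the Dlx5 heterozygous libraries 1 was from batch 1 and 3 from batch 2. All wild type and Kat6a homozygous libraries were from batch 2.

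Kat6a is a histone acetyltransferase, also known as Moz, that works in a complex with a Brpf scaffold, Ing5 and Meaf6 and helps to keep developmental genes active. Dlx genes encode homeodomain factors that lie in convergent pairs, and Dlx5 and Dlx6 give the lower jaw its identity downstream of endothelin signalling in the cranial neural crest. Mice that lack Kat6a have palate and other craniofacial defects.

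The 8 libraries held 10406452 to 16710291 counts assigned to genes, and 14506 genes were tested. Genes that mark the arches were present in the 8 libraries. Hand2, a factor of the ventral first arch, lay between 83.5 and 118 CPM (counts relative to the library total, with trimmed mean of M-values scaling), and Hoxa2, a marker of the second arch, between 9.99 and 14.7 CPM. Kat6a itself was at 212, 237, 193 and 223 CPM in Dlx5 heterozygous replicates 1 to 4 and at 240, 239, 215 and 244 CPM in the double heterozygous ones. The groups overlapped, and the log2 fold change was 0.14 (95% confidence interval -0.09 to 0.38). Kat6a counts were not lower in the Kat6a homozygous libraries either (228 ± 14.6 CPM, SD, n = 4, against 202 ± 40.7 CPM in wild type, n = 4). Dlx5 was at 69.0, 76.0, 58.2 and 64.3 CPM in Dlx5 heterozygous libraries and at 68.8, 59.3, 56.4 and 57.0 CPM in double heterozygous ones, with a log2 fold change of -0.07 (-0.24 to 0.11). Counts summed over the whole gene therefore did not separate the Kat6a genotypes. The groups share the same Dlx5 genotype, so their Dlx5 values cannot show whether counts separate the Dlx5 alleles. The genotypes rest on the labels.

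Double heterozygous replicate 1, the single library of its group from batch 2, stood apart at 1 imprinted locus. Meg3, Rian and Mirg are noncoding RNAs made from the maternal copy of the Dlk1-Meg3 cluster on chromosome 12, and Dlk1 is the protein-coding gene made from the paternal copy. Meg3 was at 1.64 CPM in that library and between 118 and 253 CPM in the other 23 libraries of the series. Rian was at 8.40 CPM against 166 to 242 CPM. Mirg was at 0.821 CPM against 7.26 to 16.0 CPM. Dlk1 went the other way, with 1113 CPM in that library against 432 to 735 CPM. The cause was not tested, and the calls are also given without this library. Dlx5 heterozygous replicate 1 was low in neuronal genes: of 11252 genes with a mean of at least 5 CPM, 14 lay more than 2-fold below all other 7 libraries there, among them Dcx, Tubb3 and Stmn2. Outside the 8 libraries, Kat6a heterozygous replicate 3 went against the female label: Xist, the RNA of the inactive X chromosome, was at 7.55 CPM there and at 963 to 2456 CPM in the other 23 libraries. Without that library the same 2 genes were called in the comparison and 1 in the difference of Kat6a copy loss.

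**Figure D1:**
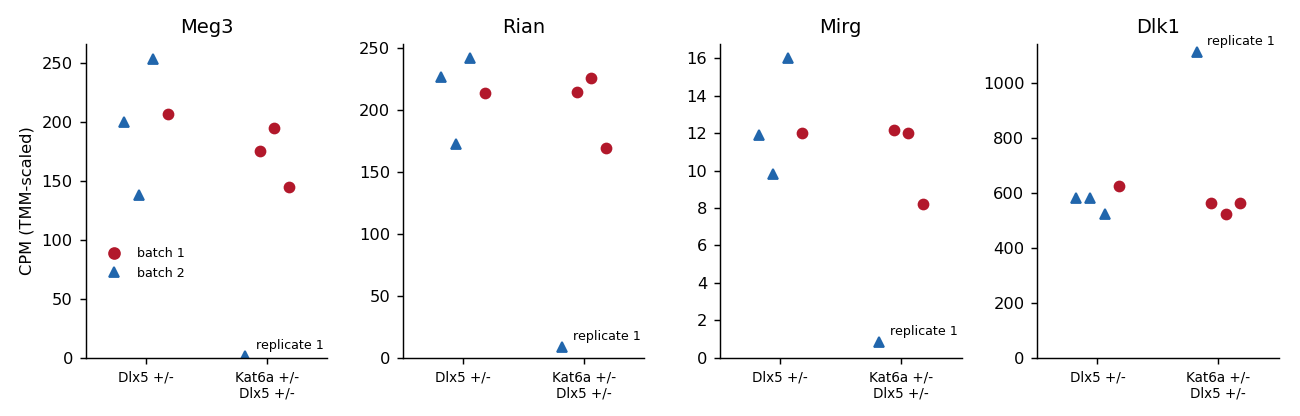
Level of 4 genes of the Dlk1-Meg3 imprinted cluster in the 8 libraries (vertical axes in CPM, each from 0; 1 point per library; circles batch 1, triangles batch 2). Double heterozygous replicate 1 lies near 0 for Meg3 (1.64), Rian (8.40) and Mirg (0.821) and highest for Dlk1 (1113).

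Loss of 1 Kat6a copy on the Dlx5 heterozygous background changed few genes past the threshold. Of 14506 genes, 2 (0.0138%) passed a Benjamini-Hochberg adjusted p of 0.05 in edgeR's quasi-likelihood test with batch in the model. Dlx6os1, a long noncoding RNA of the Dlx5-Dlx6 locus, fell, and Mpo, the myeloperoxidase of the neutrophil and monocyte lineage, rose. At an unadjusted p under 0.05 there were 856 genes (5.9%), 410 higher and 446 lower. The CPM values of the groups did not overlap for 538 genes (3.71%), and after adjustment for batch for 1117 (7.7%). The median size of the log2 fold change over all genes was 0.092, and the median half-width of its unadjusted 95% confidence interval was 0.221. That width is not the limit for a call, which rests on the adjusted p. Larger changes also stayed uncalled with 4 libraries a group, such as Hs3st3a1 at 0.58 (edgeR adjusted p 0.206). Without double heterozygous replicate 1 no gene was called and 451 had an unadjusted p under 0.05 (edgeR).

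Dlx6os1 was at 46.2, 40.7, 42.6 and 34.3 CPM in Dlx5 heterozygous replicates 1 to 4. In double heterozygous replicates 1 to 4 it was at 23.2, 24.6, 23.3 and 22.0 CPM. All 4 double heterozygous libraries lay below all 4 Dlx5 heterozygous ones, and the gap was present within each facility. In batch 2 the values were 23.2 against 40.7 to 46.2 CPM, and in batch 1 they were 22.0 to 24.6 against 34.3 CPM. The log2 fold change was -0.73 (SE 0.10, 95% confidence interval -0.95 to -0.52, edgeR adjusted p 0.00261). The call was lost in 3 of 28 other fits, each with fewer libraries: batch 1 alone (-0.56, adjusted p 1.00), batch 2 alone (-0.90, adjusted p 0.177) and without double heterozygous replicate 1 (-0.64, adjusted p 0.195). In the other Kat6a genotypes, with normal Dlx5, this RNA lay between 43.2 and 54.5 CPM in wild type, between 32.7 and 41.1 CPM in Kat6a heterozygous and between 9.58 and 12.2 CPM in Kat6a homozygous libraries. The Kat6a heterozygous and wild type ranges did not overlap, but that difference was not called (log2 fold change -0.39, edgeR adjusted p 0.146). The Kat6a homozygous value was -2.10 (edgeR adjusted p 1.52e-13).

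Dlx6os1 lies on the minus strand of chromosome 6 at chr6:6820543-6871627 (GRCm38) and spans the whole of Dlx6, which lies at chr6:6863334-6867970. How the counting treated strand was not stated, so reads in the shared part could count for either gene. The 2 start regions held in the promoter table used here are shown because Dlx proteins bind the homeodomain core TAATTA, and this RNA belongs to a Dlx locus. The windows run from 250 bases before to 50 bases after each RefSeq start, 5′ to 3′ on the minus strand, with TAATTA in capitals (read on both strands, on which it is the same letters). The first lies at chr6:6869484-6869783 and the second at chr6:6861634-6861933, both outside Dlx6.
Dlx6os1 start 1: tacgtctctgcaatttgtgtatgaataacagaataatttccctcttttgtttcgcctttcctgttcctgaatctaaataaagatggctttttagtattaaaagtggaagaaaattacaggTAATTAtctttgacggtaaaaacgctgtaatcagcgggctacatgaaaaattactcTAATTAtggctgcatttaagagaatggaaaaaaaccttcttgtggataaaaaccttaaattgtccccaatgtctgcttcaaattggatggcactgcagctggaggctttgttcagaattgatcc
Dlx6os1 start 2: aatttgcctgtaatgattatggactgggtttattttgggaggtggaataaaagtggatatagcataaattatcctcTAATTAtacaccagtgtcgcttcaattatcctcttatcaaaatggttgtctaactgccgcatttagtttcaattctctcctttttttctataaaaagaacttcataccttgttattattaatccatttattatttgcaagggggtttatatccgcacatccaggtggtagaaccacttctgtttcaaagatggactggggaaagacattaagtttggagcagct
The core was found 2 times in the first window and 1 time in the second. Of 32851 RefSeq windows of this length, 5.29% held it at least once and 0.49% at least 2 times. The window of Dlx4os, another RNA of a Dlx locus (chr11:95144803-95145102, plus strand), held it 0 times. These matches describe the letters and do not show binding.

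**Figure D2:**
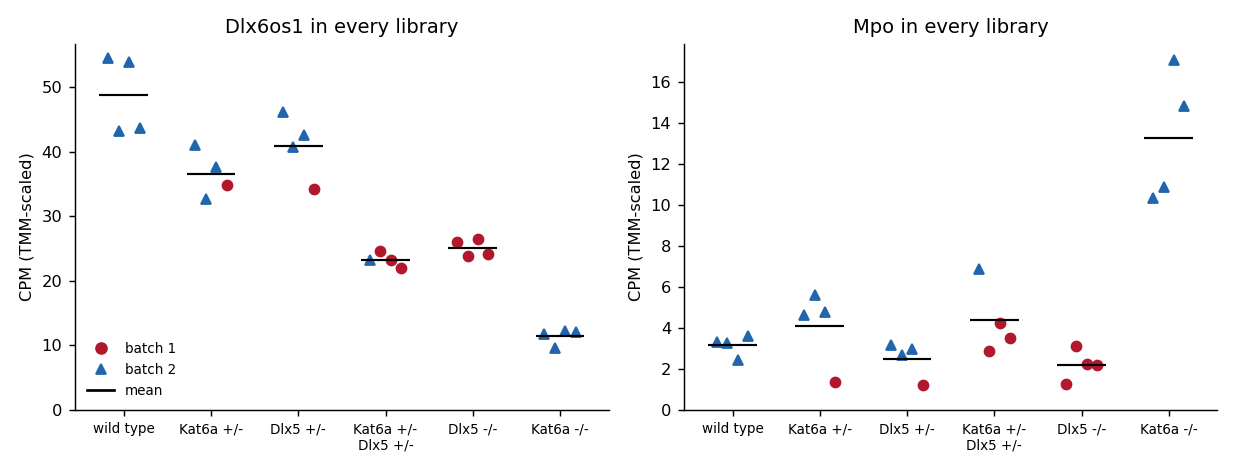
Dlx6os1 and Mpo in all 24 libraries by genotype (vertical axes in CPM from 0; 1 point per library; circles batch 1, triangles batch 2; black lines are group means, n = 4). Dlx6os1 is at 22.0 to 24.6 CPM in double heterozygous libraries, below all Dlx5 heterozygous ones, while the Mpo ranges of these groups overlap.

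The protein-coding Dlx genes moved little. All 8 listed members, Dlx6os1 and Dlx1as included, had a negative log2 fold change, with a median of -0.12 against 0.003 over all genes tested, and 1 was called. Dlx6, whose gene body lies inside Dlx6os1, was at 27.9, 36.5, 28.0 and 29.4 CPM in Dlx5 heterozygous libraries and at 32.1, 26.9, 24.8 and 29.9 CPM in double heterozygous ones. These values overlapped, and the log2 fold change was -0.05 (-0.27 to 0.17). Per kilobase of gene length, Dlx6 had a mean level of 26.5 in the double heterozygous group and Dlx6os1 of 5.48 (CPM per kilobase). Dlx1 and Dlx2, a pair expressed along the whole arch, had values of -0.03 (-0.19 to 0.13) and -0.04 (-0.23 to 0.16). Dlx3, the partner of Dlx4, was at -0.17 (-0.35 to 0.01). Dlx4 was at 3.44, 4.19, 3.68 and 4.24 CPM in Dlx5 heterozygous libraries and at 2.74, 3.39, 3.30 and 3.23 CPM in double heterozygous ones. The groups did not overlap, as for 1.73% of all genes in this direction, but the log2 fold change of -0.33 was not called (edgeR adjusted p 0.771).

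The other antisense RNAs of Dlx loci had larger negative values than their coding neighbours but were not called. Dlx4os, which starts inside Dlx4 on the opposite strand, was at 12.7, 11.6, 10.7 and 9.61 CPM in Dlx5 heterozygous libraries and at 8.12, 8.77, 6.77 and 7.53 CPM in double heterozygous ones. The groups did not overlap, with a log2 fold change of -0.42 (-0.66 to -0.18, edgeR adjusted p 0.771). Dlx1as was at 20.8, 21.2, 30.6 and 15.9 CPM and at 16.5, 13.3, 13.3 and 13 CPM, respectively. Only double heterozygous replicate 1 reached into the Dlx5 heterozygous range, and the log2 fold change was -0.46 (-0.85 to -0.07, edgeR adjusted p 0.771). In Kat6a homozygous libraries against wild type, Dlx4os was at -1.13 and Dlx1as at -1.29, both called. The division of reads between Dlx1as and Dlx1 and between Dlx4os and Dlx4 is uncertain for the reason given for Dlx6os1.

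**Figure D3:**
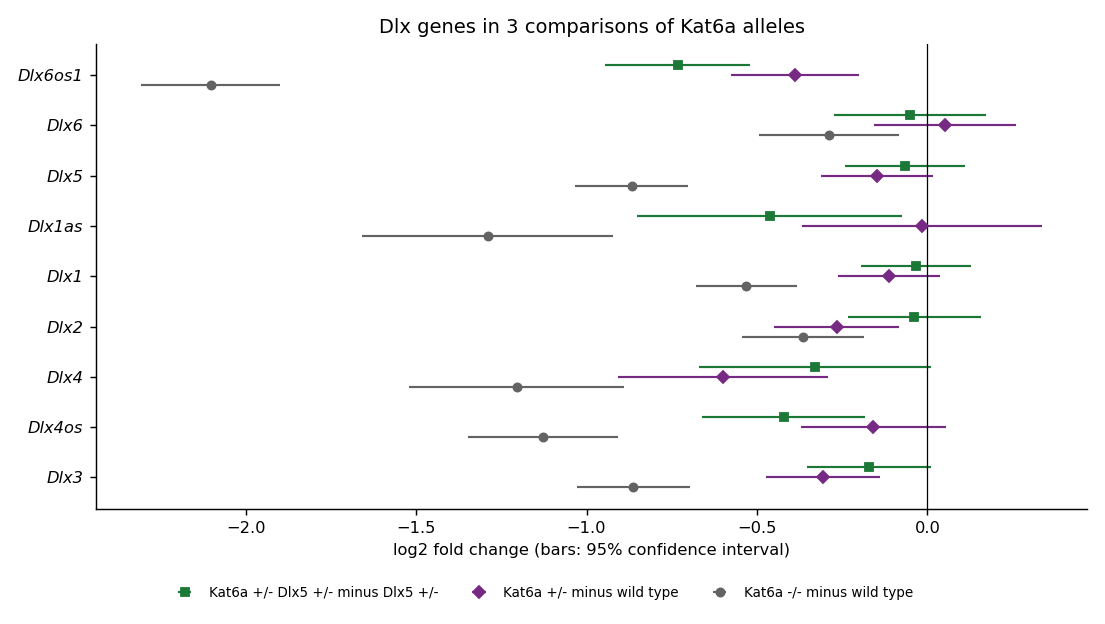
Log2 fold change of 9 Dlx transcripts (horizontal axis; bars are 95% confidence intervals from the edgeR fit; n = 4 libraries a group) in double heterozygous minus Dlx5 heterozygous, Kat6a heterozygous minus wild type and Kat6a homozygous minus wild type. In the first comparison Dlx6os1 lies at -0.73 and Dlx5 at -0.07, and in Kat6a homozygous libraries Dlx6os1 lies at -2.10 and Dlx5 at -0.87.

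Mpo was the single gene called higher. It was at 3.16, 2.67, 2.94 and 1.19 CPM in Dlx5 heterozygous replicates 1 to 4 and at 6.84, 2.87, 4.23 and 3.48 CPM in double heterozygous ones. The groups overlapped, because double heterozygous replicate 2 lay below 2 of the Dlx5 heterozygous libraries. Within a facility, where 1 library faced 3, they did not overlap. The values were 6.84 against 2.67 to 3.16 CPM in batch 2 and 2.87 to 4.23 against 1.19 CPM in batch 1. The share of all genes separated in this way was not computed. The log2 fold change with the batch term was 1.47 (SE 0.25, 95% confidence interval 0.95 to 1.98, edgeR adjusted p 0.0298). Mpo was lower in batch 1 than in batch 2 by 1.30 on the log2 scale in the fit, and without a batch term the value was 0.84 (adjusted p 0.878). The call was lost in 14 of 28 other fits, among them limma voom (1.34, adjusted p 0.076), the 8 libraries alone (1.35, adjusted p 0.114) and the fit without double heterozygous replicate 1 (1.8, adjusted p 0.195). It was also lost without double heterozygous replicate 3 or 4, any 1 of the Dlx5 heterozygous libraries, wild type replicate 2 or Kat6a heterozygous replicate 4. Mpo was higher in Kat6a homozygous libraries (10.3 to 17.1 CPM) than in wild type (2.42 to 3.62 CPM), with a log2 fold change of 2.06 (edgeR adjusted p 2.31e-07).

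The RefSeq sequence before the Mpo start is shown because PU.1, a master factor of myeloid cells, binds GAGGAAGT. It covers 250 bases at chr11:87793534-87793783 (GRCm38, plus strand), with that motif in capitals, searched on both strands.
Mpo: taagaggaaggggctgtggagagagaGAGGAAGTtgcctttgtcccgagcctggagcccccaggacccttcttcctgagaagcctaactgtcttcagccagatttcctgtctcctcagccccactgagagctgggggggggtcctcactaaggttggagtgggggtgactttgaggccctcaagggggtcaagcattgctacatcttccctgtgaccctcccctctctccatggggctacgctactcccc
The motif was found 1 time, and 2.44% of 32851 windows of 250 bases held it. The match is a description and shows no binding.

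Of 15 macrophage and leukocyte markers, 14 had a positive log2 fold change (all genes: 50.8%), and the median was 0.42 (all genes: 0.003). Mpo was the single one called, and 4 with Mpo included had an unadjusted p under 0.05. Their summed level was 70.1, 54.4, 54.6 and 38.5 CPM in Dlx5 heterozygous libraries and 71.7, 62.2, 57.5 and 61.8 CPM in double heterozygous ones. Dlx5 heterozygous replicate 4, the batch 1 library, was lowest, and replicate 1, from batch 2, lay within the double heterozygous range. Within a facility, where 1 library faced 3, the summed levels did not overlap. They were 71.7 against 54.4 to 70.1 CPM in batch 2 and 57.5 to 62.2 against 38.5 CPM in batch 1. The share of all genes or lists separated in this way was not computed. Mrc1, the mannose receptor of tissue macrophages, was at 6.33, 6.15, 5.80 and 5.13 CPM and at 9.13, 9.82, 8.72 and 8.94 CPM, respectively. Its groups did not overlap, with a log2 fold change of 0.77 (edgeR adjusted p 0.771). F13a1, the A subunit of coagulation factor XIII and a macrophage product, was at 3.63, 3.92, 3.96 and 2.69 CPM and at 9.49, 8.95, 4.06 and 4.39 CPM. Replicates 1 and 2 of the double heterozygous group were well above the rest, and the log2 fold change was 1.25 (edgeR adjusted p 0.770). Csf1r and Cx3cr1, which define macrophages at this stage, were at 9.73 to 14.2 and 7.04 to 9.27 CPM in double heterozygous libraries and at 6.81 to 14.9 and 6.44 to 9.68 CPM in Dlx5 heterozygous ones. In bulk tissue a different number of cells of a type and a different amount of RNA per cell cannot be told apart. The part of leukocyte content in the Mpo result was not tested.

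Most genes called in Kat6a homozygous embryos had the same sign, with smaller values, when 1 Kat6a copy was lost on the Dlx5 heterozygous background. Kat6a homozygous and wild type libraries share no library with the groups compared here and lie in 1 batch. Between them 222 of 14506 genes (1.53%) were called, 154 lower (1.06%) and 68 higher (0.469%). Of the 154 lower genes, 114 (74%) had a negative log2 fold change in double heterozygous against Dlx5 heterozygous libraries, against 49.2% of all genes. Their median was -0.08 here and -0.45 in the Kat6a homozygous comparison. At an unadjusted p under 0.05, 27 were lower and 0 higher here, while 3.07% of all genes were lower and 2.83% higher. In 13 of the 154 the 4 double heterozygous libraries lay below all Dlx5 heterozygous ones (1.73% of all genes), and in 0 above. Of the 68 genes higher in Kat6a homozygous libraries, 54 (79.4%) had a positive value here, against 50.8% of all genes. Their median was 0.16 here and 0.48 there, 20 were higher and 1 lower at an unadjusted p under 0.05, and 8 did not overlap upward (1.98% of all genes) and 0 downward. One gene of each set, Dlx6os1 and Mpo, was called.

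The same genes were summarised in each library. A set score, the mean over its genes of log2 CPM centred on the gene's mean over 24 libraries, was 0.18, 0.16, 0.13 and 0.12 in Dlx5 heterozygous replicates 1 to 4 for the genes lower in Kat6a homozygous libraries. It was 0.05, 0.02, 0.01 and 0.02 in double heterozygous replicates 1 to 4. The groups did not overlap, nor did they within either batch. For the genes higher in Kat6a homozygous libraries the score was -0.10, -0.10, -0.01 and -0.13 in Dlx5 heterozygous and 0.18, 0.07, 0.02 and 0.00 in double heterozygous libraries. These also did not overlap, within either batch included. For the first set, Kat6a homozygous libraries lay between -0.52 and -0.38, wild type between 0.16 and 0.26 and Kat6a heterozygous between -0.00 and 0.08. Dlx5 homozygous libraries, with normal Kat6a, lay between -0.03 and 0.05, overlapping the double heterozygous range. For the second set Dlx5 homozygous libraries lay between -0.18 and -0.09, below all double heterozygous ones. Wild type lay between -0.32 and -0.15, Kat6a heterozygous between -0.08 and 0.05 and Kat6a homozygous between 0.37 and 0.42. All 4 Dlx5 heterozygous libraries, with normal Kat6a, thus lay above all wild type ones in this set. In both sets the gap between Kat6a homozygous and wild type follows from how the genes were chosen. In all 28 other fits the medians of both sets kept their sign, with ranges of -0.10 to -0.05 and 0.11 to 0.22. Without double heterozygous replicate 1 they were -0.08 and 0.12.

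Named genes of the lower set cover several kinds of regulator. Skida1, a SKI/DACH domain protein, was at 90.1, 89.0, 85.8 and 86.3 CPM in Dlx5 heterozygous and 76.8, 73.1, 71.6 and 73.3 CPM in double heterozygous libraries. The groups were tight and separate, and the log2 fold change was -0.24 (-0.37 to -0.11, edgeR adjusted p 0.770), beside -0.68 in Kat6a homozygous libraries. Six3, a homeobox gene of the forebrain and eye, was at 1.30, 0.802, 2.21 and 3.28 CPM and at 0.821, 0.608, 1.78 and 0.414 CPM, with overlap and a log2 fold change of -1.43 (edgeR adjusted p 0.770). Hoxb3, a Hox gene of the hindbrain and posterior arches, was at 5.21, 5.70, 8.56 and 4.30 CPM and at 1.92, 5.65, 3.56 and 3.23 CPM, with a log2 fold change of -0.76 (edgeR adjusted p 0.771). Its groups overlapped through replicate 2 of the double heterozygous group. Meis1, a homeodomain cofactor of Hox proteins, was at 80.6 to 104 CPM in Dlx5 heterozygous and 73.2 to 79.9 CPM in double heterozygous libraries, with no overlap and a log2 fold change of -0.16. In the higher set, Postn, which encodes the matrix protein periostin, was at 33.3, 37.3, 34.0 and 30.8 CPM and at 44.9, 38.9, 35.0 and 36.9 CPM. Its log2 fold change was 0.30 (0.14 to 0.45, edgeR adjusted p 0.770), with overlapping groups, beside 0.79 in Kat6a homozygous libraries. S100a9, a neutrophil protein, had a log2 fold change of 2.35 from very low levels, with 1.19, 0.0, 0.508 and 0.0 CPM in double heterozygous libraries and at most 0.186 CPM in Dlx5 heterozygous ones.

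**Figure D4:**
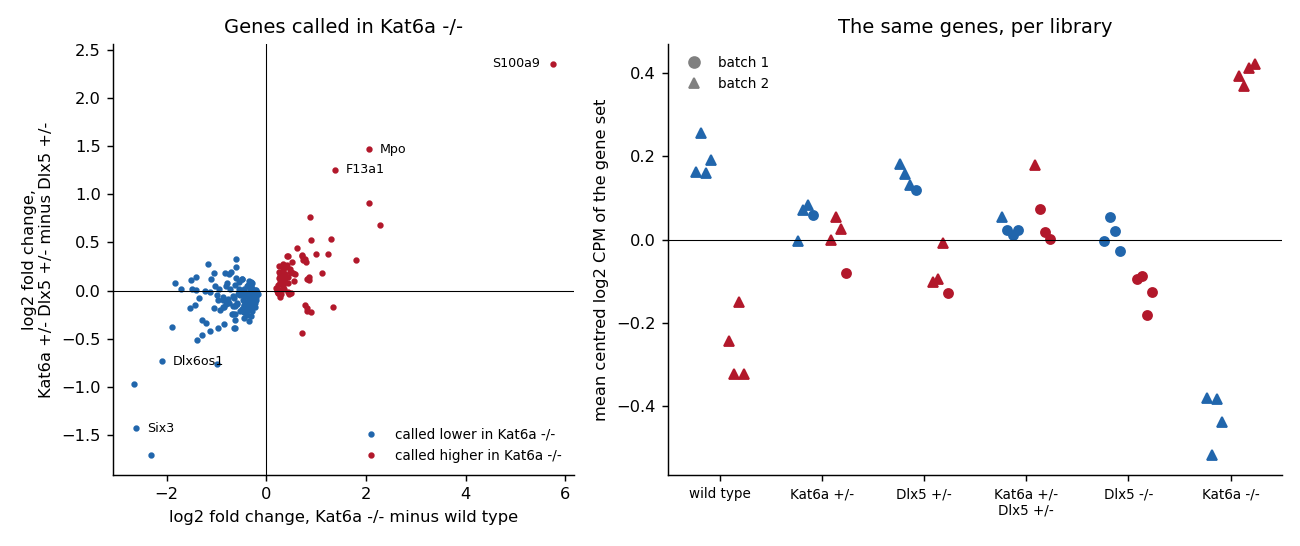
Left, log2 fold change of the 222 genes called in Kat6a homozygous libraries (horizontal axis) against their log2 fold change in double heterozygous minus Dlx5 heterozygous libraries (vertical axis; blue, 154 lower; red, 68 higher); right, mean centred log2 CPM of both sets in each of the 24 libraries (circles batch 1, triangles batch 2). Of the blue genes 114 lie below 0 on the vertical axis and of the red genes 54 lie above it, and the double heterozygous scores lie between 0.01 and 0.05 for the blue set.

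Beyond the called pair, named genes with small p in each direction were not called and are given as values. Hs3st3a1, a heparan sulfate sulfotransferase, was at 8.47, 8.73, 6.90 and 8.12 CPM in Dlx5 heterozygous and 13.3, 11.3, 10.4 and 10.8 CPM in double heterozygous libraries. The groups were well separated, with a log2 fold change of 0.58 (0.34 to 0.83, edgeR adjusted p 0.206), and limma voom called it (adjusted p 0.0391). Its value in Kat6a homozygous libraries was 0.16. Gm6402, a transcribed pseudogene, was at 11.9, 11.7, 9.75 and 8.78 CPM and at 17.1, 14.5, 20.4 and 14.7 CPM, without overlap. Its log2 fold change was 0.74 (0.41 to 1.06, edgeR adjusted p 0.297), DESeq2 and the fit with the gene length trend removed called it, and its value in Kat6a homozygous libraries was -0.03. Alkal2, a ligand of the ALK receptor, was at 1.30, 0.980, 2.30 and 0.955 CPM and at 3.74, 2.17, 1.78 and 1.90 CPM, with a log2 fold change of 1.15 (edgeR adjusted p 0.770), and limma voom also called it (adjusted p 0.0391). Tbl1xr1, a subunit of the NCoR and SMRT corepressor complexes, was at 64.2 to 78.3 CPM and at 83.5 to 92.7 CPM, without overlap, with a log2 fold change of 0.37. Lmx1a, a LIM homeodomain factor, was at 1.07 to 1.61 CPM and at 5.84, 2.08, 1.78 and 2.15 CPM, with double heterozygous replicate 1 far above the rest and a log2 fold change of 1.34. Other positive values were 0.80 for Dcaf12l2 and 0.26 for Asb1, a SOCS box protein.

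On the negative side, Doc2b, a calcium sensor of vesicle release, was at 3.82, 3.56, 4.88 and 3.10 CPM in Dlx5 heterozygous and 1.83, 1.65, 2.37 and 2.32 CPM in double heterozygous libraries. The groups did not overlap, and the log2 fold change was -0.86 (-1.32 to -0.39, edgeR adjusted p 0.770). Idnk, a gluconokinase, was at 14.9, 13.1, 13.6 and 12.4 CPM and at 10.7, 10.1, 10.8 and 9.85 CPM, again without overlap and with a log2 fold change of -0.38. Trim3, a ubiquitin ligase, was at 25.2 to 29.2 CPM and at 21.6 to 23.9 CPM, with a log2 fold change of -0.28. Llgl2, a cell polarity protein of epithelia, was at 32.4, 24.8, 33.2 and 32.7 CPM and at 17.5, 24.8, 30.1 and 22.8 CPM, with overlap and a log2 fold change of -0.60. Fam187b (-1.09), Tspear (-1.26), Smim11 (-0.32) and Fhl1 (-0.29), a LIM domain protein, were also in this group. The 12 genes picked by p in each direction leave out predicted genes, pseudogenes and unnamed identifiers. Of these, 11 positive and 9 negative ones had the same sign in Kat6a homozygous against wild type libraries. The share of all genes with the same sign in both comparisons was not computed. Several picked genes, among them Mpo, F13a1, Postn, Six3 and Skida1, were already counted above as called in Kat6a homozygous libraries.

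Lists of genes that pattern the arches had small medians and held neither called gene, though single maxillary genes reached -0.63 and 0.61. Of 27 tested mandibular genes, 10 had positive and 17 negative values, with a median of -0.04 and 1 in each direction at an unadjusted p under 0.05. Hand2, which is needed for the lower jaw program below Dlx5 and Dlx6, had a log2 fold change of 0.03 (-0.20 to 0.27). Msx2, a BMP-responsive homeobox gene, was at 70.3, 69.7, 60.7 and 71.3 CPM in Dlx5 heterozygous and 61.7, 55.2, 60.5 and 58.4 CPM in double heterozygous libraries, with overlap and a value of -0.23 (edgeR adjusted p 0.771). Of 18 maxillary genes, 12 were positive, with a median of 0.05. Fgf8, a signal from the arch epithelium, was at 19.8 to 30.6 CPM and at 17.7 to 25.4 CPM, with a log2 fold change of -0.63 (edgeR adjusted p 0.771). Among 12 endothelin pathway genes, which include the ligand Edn1 at -0.13 (-0.72 to 0.47) and the receptor Ednra at 0.03 (-0.18 to 0.25), 7 were positive and the median was 0.04. Palate regulators had 10 positive of 23 and a median of -0.05, and skeletal genes 5 of 11 and a median of -0.00. Kat6a complex subunits had 4 positive of 8 and a median of 0.01. In that list Kat6b, the paralog of Kat6a, was at 58.9, 56.5, 67.4 and 54.3 CPM and at 72.4, 64.5, 66.1 and 66.7 CPM, with a log2 fold change of 0.27 (0.08 to 0.45, edgeR adjusted p 0.771).

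Signalling target lists held neither called gene. Of 18 hedgehog pathway and target genes 15 were positive (83.3%, against 50.8% of all genes), with a median of 0.10 and 4 higher and 1 lower at an unadjusted p under 0.05. Foxf2, a mesenchymal target of the pathway, was at 23.1 to 27.9 CPM in Dlx5 heterozygous and 23.0 to 39.7 CPM in double heterozygous libraries (log2 fold change 0.41, edgeR adjusted p 0.771). Its ligand Shh, which is made by epithelium, had a value of -0.39 (-0.70 to -0.08, edgeR adjusted p 0.771), with 13.1 to 15.1 CPM and 10.4 to 13.4 CPM. BMP genes had 5 positive of 15 and a median of -0.06, FGF feedback genes 7 of 15 and -0.02, Wnt targets 7 of 14 and -0.00, and retinoic acid genes 10 of 17 and 0.05. Cell cycle genes had 11 positive of 18 and a median of 0.01, and p53 and cell cycle inhibitor genes 3 of 12 and -0.06. Extracellular matrix genes leaned one way, with 20 of 21 positive and a median of 0.23, 4 of them at an unadjusted p under 0.05. Col3a1, a fibrillar collagen, was at 728, 744, 758 and 651 CPM in Dlx5 heterozygous and 871, 811, 733 and 809 CPM in double heterozygous libraries, with a log2 fold change of 0.25 (edgeR adjusted p 0.771). The mean centred level of the matrix list was highest in double heterozygous replicates 1 and 2 (0.33 and 0.24). Replicates 3 and 4 (-0.04 and 0.10) lay within the Dlx5 heterozygous range of -0.09 to 0.17, taken over both batches. Within a facility, where 1 library faced 3, the groups did not overlap. The scores were 0.33 against 0.02 to 0.17 in batch 2 and -0.04 to 0.24 against -0.09 in batch 1. How many of all genes or lists separate in this way was not computed.

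Markers of other cell types differed between libraries more than between groups. The summed level of neuron and glia markers was 182, 553, 265 and 272 CPM in Dlx5 heterozygous and 334, 268, 459 and 475 CPM in double heterozygous libraries. The lowest and the highest value were both Dlx5 heterozygous, 15 of 17 log2 fold changes were positive with a median of 0.79, and their median interval half-width was 2.68. Epithelial markers summed to 688, 501, 773 and 699 CPM and to 496, 559, 713 and 559 CPM, respectively. Of these, 14 of 15 had negative values, with a median of -0.34 and 3 at an unadjusted p under 0.05. Grhl2, a factor of epithelial identity, was at 52.5, 38.0, 49.9 and 45.6 CPM and at 28.7, 35.4, 46.0 and 36.8 CPM (log2 fold change -0.50, edgeR adjusted p 0.771). Shh, Fgf8 and Llgl2 are themselves expressed in epithelium, and the part of epithelial content in their values was not tested. Pharyngeal endoderm markers had 8 negative of 11 and a median of -0.31. Brain and eye genes had 9 negative of 11 and a median of -0.36, with Six3 and En2 (-1.71, edgeR adjusted p 0.771) lowest. Erythroid markers had 11 positive of 12 and a median of 0.35. Their summed level was 2303 to 3161 CPM in Dlx5 heterozygous and 2400 to 3605 CPM in double heterozygous libraries. Within a facility, where 1 library faced 3, these sums did not overlap. They were 3605 against 2758 to 3161 CPM in batch 2 and 2400 to 2879 against 2303 CPM in batch 1. How many of all genes or lists separate in this way was not computed. Endothelial markers had 8 positive of 14 and a median of 0.09, and myogenic ones 4 of 9 and -0.01. With the neuron and glia score as a covariate the same 2 genes were called.

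**Figure D5:**
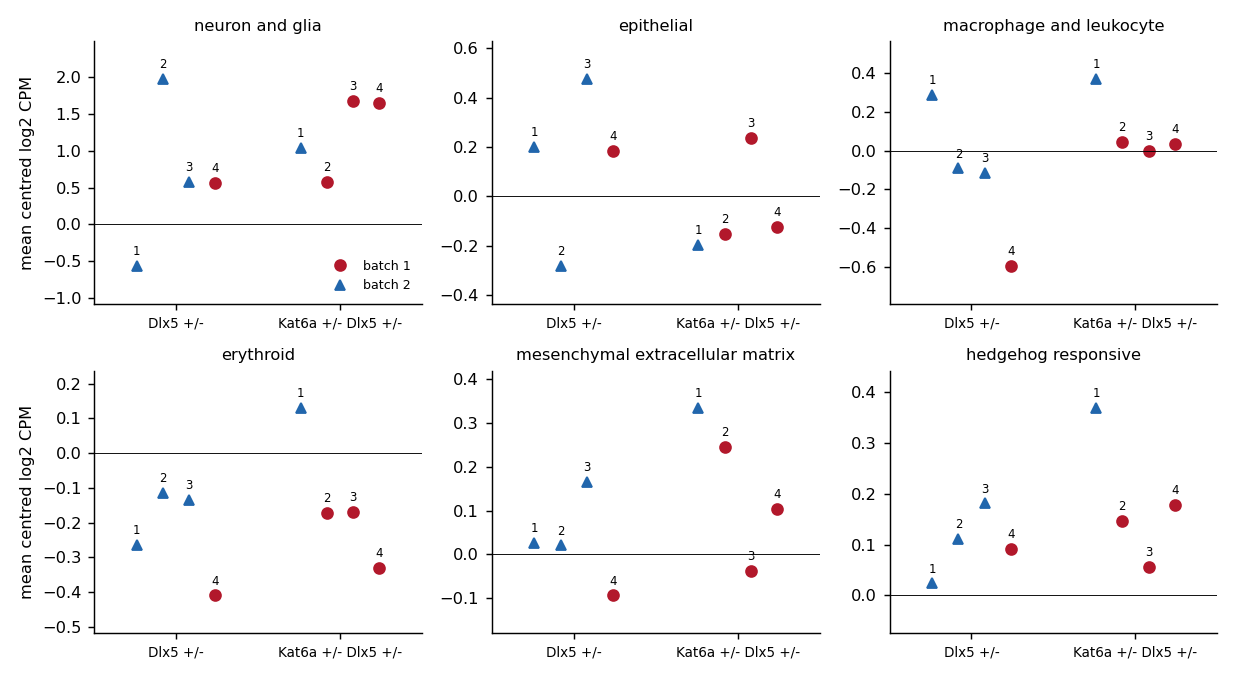
Mean centred log2 CPM of 6 gene lists in each of the 8 libraries (vertical axes differ between panels; numbers are replicates; circles batch 1, triangles batch 2). The groups overlap in all 6 panels, with neuron and glia scores from -0.57 to 1.98 in Dlx5 heterozygous and 0.58 to 1.68 in double heterozygous libraries.

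Whether loss of 1 Kat6a copy acted differently with and without the second Dlx5 copy was tested as the difference between double heterozygous minus Dlx5 heterozygous and Kat6a heterozygous minus wild type. Of 14506 genes, 1 (0.00689%) was called by edgeR and 783 (5.4%) had an unadjusted p under 0.05. The called gene, Gm6402, is a transcribed pseudogene with a difference of 1.24 on the log2 scale (0.82 to 1.65, edgeR adjusted p 0.032), and its reads may be shared with a parent gene. Limma voom called 0 genes (1170 at an unadjusted p under 0.05). The call was also lost without any 1 of wild type replicates 1, 3 and 4, Kat6a heterozygous replicates 1, 2 and 4, Dlx5 heterozygous replicates 3 and 4, and double heterozygous replicates 1 and 3. For Dlx6os1 the difference was -0.35 (-0.61 to -0.08, edgeR adjusted p 0.877), so a larger effect on the Dlx5 heterozygous background was not shown. For Mpo it was 0.89 (0.23 to 1.56, edgeR adjusted p 0.877). For Dlx5 it was 0.08 (-0.15 to 0.31, edgeR adjusted p 0.942). Kat6a heterozygous against wild type libraries gave 0 called genes (0%) by edgeR and 1648 (11.4%) at an unadjusted p under 0.05.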

How the data were processed

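The series holds 24 RNA-seq libraries of 6 genotypes with 4 libraries each, made with a stranded mRNA kit per the labels' protocols. CASAVA 1.8.2, featureCounts and the mm10 build are named in the submitters' processing notes. For the aligner, annotation and strand handling, nothing is given in the sources used here. The deposited values are the authors' unnormalized read counts per gene, and the 24 single-sample files held the same counts as the table of the series. Of the entries, 568 had no gene identifier (0.182% to 0.259% of a library's counts) and were left out. Of 26611 identifiers, 25275 were matched to a symbol, and coordinates and sequences are from RefSeq on GRCm38.p6.

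Counts were tested with edgeR 4.0.16 in R 4.3.3: filterByExpr by group (14506 genes), TMM scaling, 6 group means and batch over all 24 libraries, and robust quasi-likelihood F tests (17 residual degrees of freedom; biological coefficient of variation 0.0896). A gene was called when its Benjamini-Hochberg adjusted p was below 0.05. The batch effect is estimated from the 3 genotypes that span both facilities. Scores used log2 CPM with a prior count of 2. The text names Kat6a, Kat6b and the Dlx genes, up to 15 called genes a direction, filled to 12 by smallest p among genes averaging 1 CPM or more without predicted genes, pseudogenes, unnamed identifiers or sex-linked genes, and the leading members of 29 lists (400 genes). Other genes named (Hand2, Hoxa2, Edn1, Ednra, Csf1r, Cx3cr1, S100a9, Gm6402, Xist and the Dlk1-Meg3 genes) were chosen after their values were seen, and some genes the rule picks are not reported here. Genes and lists were chosen with earlier results of these data known. Alternatives were DESeq2 1.42.0, limma 3.58.1 voom with quality weights, other scaling and filters, no batch term, each batch alone, the 8 libraries alone, a replicate block, the neuron and glia score as covariate, a gene length correction and leaving out each library of the 4 groups. The fits were tested on simulated data.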

Additional observations from a re-analysis of the deposited data

Results flagged for a closer look

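Of 208 groups of 4 libraries, 17 held a library whose gap to the nearest other exceeded Dixon's 95% critical value for groups of this size. Chance gives about 1 in 20 where the libraries of a group are alike in batch. These values were not adjusted for batch, and double heterozygous replicate 1 was the single library of its group from batch 2. In the double heterozygous group, replicate 1 was high for Dlx1as (16.5 CPM against 13 to 13.3), Lmx1a (5.84 against 1.78 to 2.15), Wif1, a secreted Wnt inhibitor (3.74 against 1.99 to 2.17), and Slc4a1, the red cell anion exchanger (89.2 against 60.3 to 62.5). The same library was high in the mean centred log2 level of the Wnt list (0.163), the myogenic list (0.477) and the macrophage and leukocyte list (0.37). Replicate 3 was high for Dcaf12l2 (3.81 CPM against 2.61 to 2.74), Fgfr3, an FGF receptor (13.3 against 9.76 to 10.2), and Tfap2a, a crest and epithelial factor (52.1 against 38.4 to 39.3), and in the epithelial list (0.235 against -0.195 to -0.123). It was low for Mef2c, an effector of endothelin signalling (22.7 CPM against 25.6 to 26.1). Replicate 4 was high in the list of Kat6a complex subunits (0.0556 against 0.0119 to 0.0159). In the Dlx5 heterozygous group, replicate 2 was high for Dlx6 (36.5 CPM against 27.9 to 29.4) and Snap25, a neuronal synaptic protein (7.48 against 0.651 to 1.49), and low for Llgl2 (24.8 against 32.4 to 33.2). Replicate 3 was low for Msx2 (60.7 against 69.7 to 71.3).

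The value of Gm6402, a transcribed pseudogene, differed between the Dlx5 backgrounds, with a difference of Kat6a copy loss of 1.24 on the log2 scale. It was at 17.1, 14.5, 20.4 and 14.7 CPM in double heterozygous and 8.78 to 11.9 CPM in Dlx5 heterozygous libraries, and at 7.68 to 11.5 CPM in Kat6a heterozygous and 12.8 to 17.9 CPM in wild type libraries.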

How the results depend on the processing

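Each batch alone leaves 1 library on one side, whose spread is then taken from the other groups. The number of genes called in double heterozygous against Dlx5 heterozygous libraries, 2 in the model with batch, was 3 with DESeq2 and 3 with the gene length trend removed (Gm6402 in addition), 3 with limma voom (1890 genes at an unadjusted p under 0.05, against 856), 1 without a batch term, 0 in batch 1 alone, 1 with the 8 libraries alone and 6 in batch 2 alone. The 6 were Meg3, Rian, Mirg, AF357359, Dlk1 and Wdfy1, in which double heterozygous replicate 1, the single library of its group there, stood apart. Leaving out 1 library at a time gave 0 to 2 called genes, with 0 only without double heterozygous replicate 1 and, in each case of 1, Dlx6os1. The number called for the difference of Kat6a copy loss, 1 in the model with batch, was 0 with limma voom, 6 in batch 2 alone and 2 with the gene length trend removed, and 0 to 1 with a library left out. Replicate numbers did not pair the libraries: the correlation of deviations ran from -0.127 to 0.154 for same-numbered libraries and from -0.225 to 0.349 for others, and 1 of 4 double heterozygous libraries correlated best with its own number. With a replicate block, 2 genes were called in the comparison and 0 for the difference. The median log2 fold change of the genes higher in Kat6a homozygous libraries, 0.165, was 0.114 in batch 1 alone and 0.121 to 0.220 with a library left out, highest without Dlx5 heterozygous replicate 4. The alternatives over these gene sets, and the wild type libraries left out, were added after seeing the data. Over 76 named genes and 2124 other values, 17 calls were lost, 2 were gained, and 0 called values changed sign.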

Other observations

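Wdfy1, on chromosome 1, was at 30.8 CPM in double heterozygous replicate 1 and between 8.61 and 15.1 CPM in the other 7 libraries of the comparison. One other library of the series, from the Dlx5 homozygous group, was at 31.1 CPM.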
